A study of Mus musculus with 6 samples.

Results

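Aminoacyl-tRNA synthetases, the enzymes that attach each amino acid to its transfer RNA, were compared in the whole pancreas of Rkip-1 knockout and wild-type mice. Of 34 synthetase genes listed by name, 20 encode cytosolic and 14 mitochondrial enzymes. A gene was taken when at least 1 array probe set named it and no other gene in the platform annotation, or named it under the same symbol with a trailing 1. By this rule 33 genes were found, with 69 of the 45037 probe sets tested, against 18193 genes in the whole table. The gene Dars is not analysed here. A further probe set that names Aars together with Exosc6 was left out.

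The KO group was 3 samples from adult mice of the genotype written Rkip-1 KO and the WT group 3 samples from wild-type mice, all 8 weeks old, from a single colony kept on a C57BL/6 background, with 1 Affymetrix array for each sample. No treatment is recorded for either group beyond rapid dissection, and the labels do not say whether the deletion is limited to any cell type, nor give the sex of the mice. The submitters call the samples biological replicates without stating how many mice gave each. The series asks what Rkip-1, a brake on Raf kinase signalling, does in the proliferation of beta cells, but the RNA came from the whole organ, which is mostly acinar tissue.

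A synthetase activates its amino acid with ATP and joins it to the matching tRNA, and the charged tRNA then feeds the ribosome. Acinar cells of the pancreas make and export large amounts of protein and carry much of this machinery. Most cytosolic enzymes have a separate mitochondrial counterpart encoded by another gene, whose symbol ends in 2, while Gars and Kars serve both compartments. Synthetases fall into class I and class II by the fold of their catalytic domain. Several cytosolic enzymes assemble with the scaffold proteins Aimp1, Aimp2 and Eef1e1 into the multisynthetase complex. The transcription factor ATF4, made when the initiation factor eIF2alpha is phosphorylated, is known to raise many cytosolic synthetase genes, and Wars, the tryptophanyl-tRNA synthetase, is also known in human cells as a gene induced by interferon gamma.

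ATF4 acts through a composite C/EBP-ATF motif, and the stretches that hold its letters are printed here to show which synthetase genes have it near their start. TGATGNAA was searched on both strands, and the reverse complement reads TTNCATCA. RefSeq promoter windows of mouse build GRCm38.p6, 300 bases from 250 before to 50 after the start of the gene, matched 25 of the 33 synthetases. The motif occurred in 5 of their 26 windows (19.2%), against 3.97% of all 32851 windows. These 5 were Aars, Gars, Iars, Tars and Yars, all cytosolic. Among the 33 measured genes of a list of ATF4 and its described targets, 29 had windows, 35 in all, and 9 of the windows (25.7%) held the motif. Wars is not among the windows analysed here. Capitals mark the motif, and each sequence runs 5′ to 3′ on the strand of its gene, with the whole window for Iars and 20 bases to either side of the motif for the others.
Iars, chr13:49681880-49682179, plus strand: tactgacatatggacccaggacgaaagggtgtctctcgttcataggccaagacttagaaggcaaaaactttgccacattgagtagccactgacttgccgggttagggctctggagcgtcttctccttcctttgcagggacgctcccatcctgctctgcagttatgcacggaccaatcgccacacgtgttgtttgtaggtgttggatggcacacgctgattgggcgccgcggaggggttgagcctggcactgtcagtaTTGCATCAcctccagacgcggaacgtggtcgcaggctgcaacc
Aars, chr8:111033710-111033757, plus strand: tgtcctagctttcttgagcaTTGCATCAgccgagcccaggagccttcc
Aars, second match, chr8:111033831-111033878, plus strand: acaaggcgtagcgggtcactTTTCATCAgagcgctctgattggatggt
Gars, chr6:55037951-55037998, plus strand: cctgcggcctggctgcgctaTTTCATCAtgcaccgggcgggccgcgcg
Tars, chr15:11399646-11399693, minus strand: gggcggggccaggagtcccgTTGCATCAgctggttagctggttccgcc
Yars, chr4:129189886-129189933, plus strand: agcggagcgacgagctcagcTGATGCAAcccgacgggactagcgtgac
For comparison, 3 ATF4 or CHOP targets that encode no synthetase and carry the same letters are printed, the 3 of smallest p in that list. Asns, which also holds the motif and differed by -0.08, is not printed.
Fgf21, chr7:45615602-45615649, minus strand: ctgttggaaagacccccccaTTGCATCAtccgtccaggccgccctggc
Chac1, chr2:119351029-119351076, plus strand: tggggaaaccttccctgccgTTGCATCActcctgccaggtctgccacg
Trib3, chr2:152344019-152344066, minus strand: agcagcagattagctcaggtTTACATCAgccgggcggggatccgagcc
A match is a description of these letters and does not show that a factor binds there.

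Values are log2 expression per probe set and array, made by RMA, in which 1 unit is a doubling and any shift common to nearly all genes is removed. Array medians lay between 2.97 and 3.02, and the correlation of any pair of arrays was 0.989 to 0.993. Pebp1, the gene for Rkip-1 on chromosome 5, was low in the KO arrays, with 5.89, 6.50 and 5.71 at its brightest probe set in KO against 9.81, 10.01 and 9.81 in WT. The difference there was -3.84 (95% interval -4.25 to -3.44). The other Pebp1 probe set measured 2.76, 3.35 and 3.56 in KO and 8.58, 8.53 and 8.45 in WT, a difference of -5.30. Of 9 acinar markers measured all lay above the arrays' upper quartile of 4.54, and 6 of them (Cel, Cpa1, Cela2a, Ctrb1, Prss2 and Cela1) lay between 14.26 and 14.52 in every array, at the compressed top of the scale. Xist, which marks female cells, read 9.09 to 9.79 in KO replicates 2 and 3 and WT replicate 3, and 4.005 to 4.43 in the other arrays. The tests below compare KO with WT in limma over all 45037 probe sets with Benjamini-Hochberg adjustment, with 0.05 as the threshold for passing. Differences between whole-organ samples cannot tell a change of RNA in each cell from a change in the share of cells.

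Wars was the 1 synthetase gene of 33 that passed, and it was higher in the KO pancreas by close to a doubling. Among all genes by their brightest probe set 0.132% passed. The brightest Wars probe set (1434813_x_at) measured 8.88, 8.68 and 8.89 in KO replicates 1, 2 and 3, against 7.94, 7.74 and 7.79 in WT replicates 1, 2 and 3. Every KO value lay above every WT value, and the gap between the groups was wider than the range within either. The means were 8.81 ± 0.12 in KO and 7.82 ± 0.11 in WT (SD, n = 3 each). The difference was 0.99 on the log2 scale, a 1.99-fold rise (95% interval 1.70 to 2.32, adjusted p 0.00769 in limma). Wars ranked 10 by p among the 18193 genes, and 16 by size among the 19 genes that passed as higher.

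The other 3 Wars probe sets were higher in KO by similar amounts. They share transcripts with the first and are not independent measurements. The second brightest (1437832_x_at) measured 8.36, 8.29 and 8.29 in KO and 7.59, 7.45 and 7.46 in WT, a 1.76-fold rise (1.535 to 2.01, adjusted p 0.00929 in limma). The third (1415694_at), whose name has no suffix for binding of several transcripts, measured 7.81, 7.77 and 7.91 in KO and 6.96, 6.89 and 6.91 in WT. It was the most tightly measured of the 4, and its rise was 1.88-fold (1.64 to 2.14, adjusted p 0.00448 in limma). The dimmest (1425106_a_at) measured 6.09, 5.94 and 5.97 in KO and 5.18, 4.60 and 5.18 in WT, where WT replicate 2 stood below the other WT arrays. Its difference of 1.02 on the log2 scale was as large as at the other probe sets but did not pass (adjusted p 0.0598 in limma). In all 4 probe sets every KO value lay above every WT value, as in 6.97% of all probe sets.

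**Figure D1:**
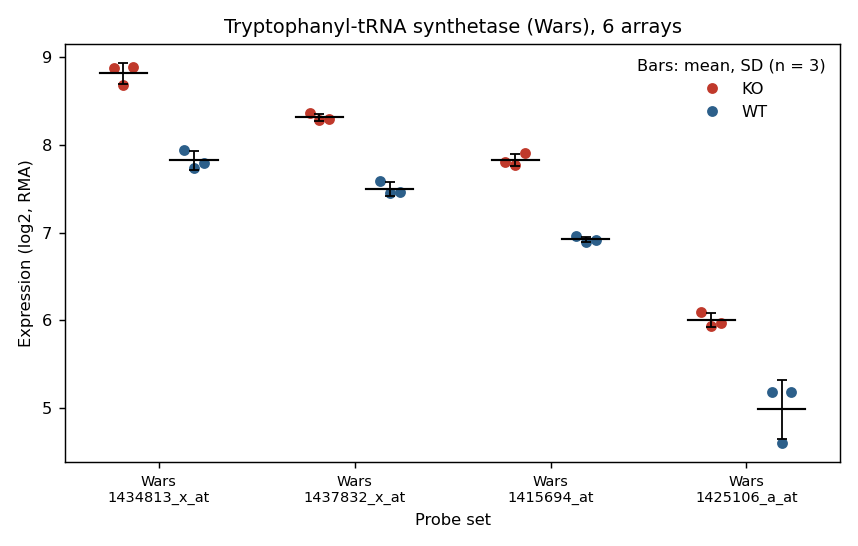
Expression of Wars (log2, RMA) at its 4 probe sets, in order of brightness, with KO arrays left of WT arrays. Points are single arrays and bars show mean and SD of 3. At each probe set the 3 KO points lie above the 3 WT points, by 0.81 to 1.02 between the means.

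Over all 69 synthetase probe sets, 3 passed, all of Wars and all higher, where 0.0977% of probe sets passed in the whole table. Without WT replicate 2 the count was 1. The brightest Wars probe set then had an adjusted p of 0.0707 in limma with a difference of 0.95, and the second 0.0782. The second was also lost without KO replicate 1 (0.0579) and without KO replicate 2 (0.0720), while the third passed with each array left out, at 0.0194 to 0.0473. Among the 3 arrays with high Xist the brightest Wars probe set read 8.68 and 8.89 in KO and 7.79 in WT, and among those with low Xist 8.88 in KO and 7.94 and 7.74 in WT. With the Xist level as a covariate its difference was 1.01 (adjusted p 0.0296 in limma).

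Wars2, which charges tryptophan tRNA in mitochondria and is encoded by a separate gene, did not pass. Its brightest probe set measured 3.88, 3.51 and 3.72 in KO against 3.69, 4.11 and 4.003 in WT, with overlapping groups. The difference was -0.23 (95% interval -0.53 to 0.07), at levels below the arrays' upper quartile, where differences can be understated. Its other probe set ran the other way, at 0.18, without passing.

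Genes next to Wars on chromosome 12 were read to see whether the neighbourhood moved with it. They were picked by position, up to 3 protein-coding genes to either side in the RefSeq order, and 5 of these 6 were measured. Slc25a47, a mitochondrial carrier and the nearest gene on the left, was higher by 0.36 without passing (unadjusted p 0.00616, adjusted p 0.365 in limma), and Wdr25, the nearest on the right, differed by 0.25 (adjusted p 0.636). Yy1, Slc25a29 and Dlk1 differed by -0.03, 0.05 and -0.04.

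At their brightest probe sets the other cytosolic enzymes stayed close to their WT levels. Over the 18 that were measured besides Wars, 8 were higher and 10 lower, with differences from -0.27 to 0.19 and a median of -0.04, against a median of 0.00 over all genes. None of the 18 passed in limma, and 2 had an unadjusted p under 0.05, both lower, where 5.58% of all genes were lower at that level. For 17 of the 18 the 95% interval of the difference lay within 0.5 log2 units of 0. Set against the mean of the WT arrays, the median of these 18 enzymes was 0.00, -0.14 and 0.09 in the KO arrays and 0.01, 0.06 and -0.07 in the WT arrays, so KO and WT overlapped. Wars on the same scale stood at 1.05, 0.85 and 1.06 in the KO arrays.

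**Figure D2:**
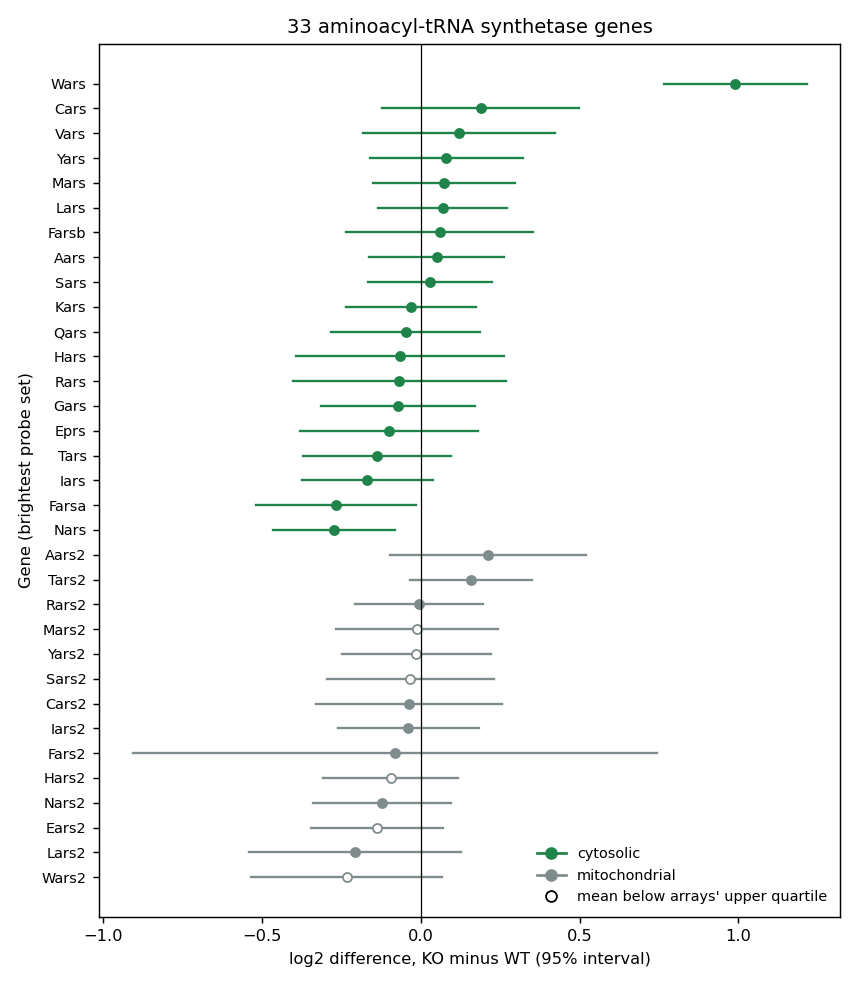
Difference between KO and WT (log2) with 95% interval for 33 synthetase genes by their brightest probe set, cytosolic enzymes above and mitochondrial ones below. Hollow points mark genes whose mean lies below the arrays' upper quartile. Wars stands apart at 0.99, and the other 32 genes lie between -0.27 and 0.21.

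Nars, the asparaginyl enzyme, had the lowest difference among the genes when each was read at its brightest probe set. Iars lay below Nars when the probe sets of each gene were averaged, at -0.33 against -0.24. The same order held without _s_at and _x_at probe sets, at -0.50 for Iars against -0.27 for Nars. The brightest Nars probe set measured 9.45, 9.41 and 9.43 in KO and 9.73, 9.76 and 9.61 in WT. The KO values were all below the WT values and very close together. The difference of -0.27 (95% interval -0.46 to -0.08) did not pass, with an unadjusted p of 0.0105 and an adjusted p of 0.405 in limma. The second Nars probe set differed by -0.21, with 8.02, 7.85 and 7.70 in KO and 8.15, 7.97 and 8.07 in WT, and its groups overlapped.

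Iars, the isoleucyl enzyme of the multisynthetase complex, differed by unequal amounts at its 2 probe sets. The brightest measured 8.54, 8.40 and 8.59 in KO and 8.64, 8.66 and 8.74 in WT, a difference of -0.17 (95% interval -0.37 to 0.04). The other measured 6.42, 6.22 and 6.28 in KO and 6.84, 6.75 and 6.83 in WT. There the groups were further apart, at -0.50 (unadjusted p 0.000327, adjusted p 0.149 in limma). This was the lowest difference of any synthetase probe set, and it did not pass under any alternative, with an adjusted p of 0.0873 to 0.458. Neither probe set had overlapping groups, and what sets their sizes apart was not tested.

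Farsa encodes the catalytic subunit of the phenylalanyl enzyme and Farsb its partner subunit. The brightest Farsa probe set measured 5.71, 5.62 and 5.95 in KO and 6.03, 6.14 and 5.91 in WT, a difference of -0.27 (unadjusted p 0.0399, adjusted p 0.55 in limma) with overlapping groups. Another Farsa probe set ran the other way, at 0.23, with 5.10, 5.14 and 5.14 in KO and 5.003, 5.04 and 4.66 in WT. Farsb differed by 0.06 at its brightest probe set.

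**Figure D3:**
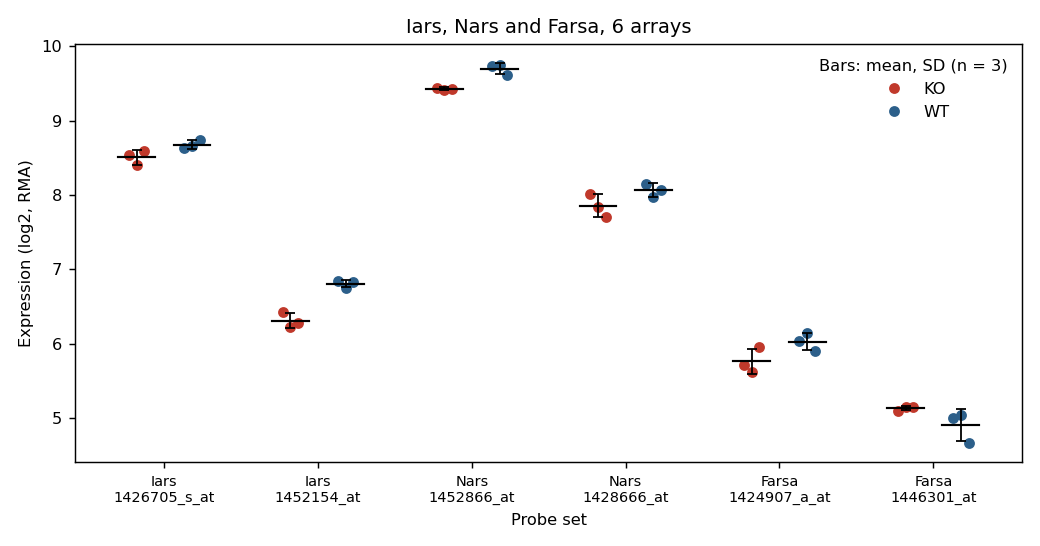
Expression (log2, RMA) of Iars, Nars and Farsa at the probe sets whose mean lies above the arrays' upper quartile, KO arrays left of WT arrays, with mean and SD of 3. The KO and WT points separate for both Iars probe sets, the brighter Nars probe set and the dimmer Farsa probe set, and that Farsa probe set is the one with KO above WT.

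Of the cytosolic multisynthetase complex, 7 enzymes were measured, namely Eprs, Iars, Kars, Lars, Mars, Qars and Rars. At their brightest probe sets the differences ran from -0.17 for Iars to 0.07 for Mars, with a median of -0.05. The 95% intervals of all 7 there lay within 0.5 log2 units of 0. The other Iars probe set differed by -0.50 (95% interval -0.70 to -0.29). Eprs, a single protein that charges both glutamate and proline tRNAs, measured 7.83, 7.65 and 8.07 in KO and 8.05, 8.00 and 7.79 in WT. Gars and Kars, whose products also serve mitochondria, differed by -0.07 and -0.03. Outside the complex, the alanyl enzyme Aars differed by 0.05, the cysteinyl Cars by 0.19, the histidyl Hars by -0.07, the seryl Sars by 0.03, the threonyl Tars by -0.14, the valyl Vars by 0.12 and the tyrosyl Yars by 0.08. By catalytic class, the 17 class I genes had a median difference of -0.01 with Wars among them, and the 15 class II genes -0.07. Eprs holds a domain of each class and was counted in neither.

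Mitochondrial enzymes showed no gene past the threshold among 14 in limma, and 0 of them had an unadjusted p under 0.05, where 10.1% of all genes did. Of these 14, 12 were lower and 2 higher, where 50.2% of all genes were lower, in a range from -0.23 for Wars2 to 0.21 for Aars2, with a median of -0.04. Their levels were nearer the floor, and 8 of the 14 lay above the upper quartile, against 19 of the 19 cytosolic genes. Tars2, the threonyl enzyme, had groups that did not overlap, with 5.66, 5.72 and 5.61 in KO and 5.44, 5.53 and 5.54 in WT, a difference of 0.16. Fars2, the phenylalanyl enzyme, varied most within the groups, with 7.29, 5.73 and 5.81 in KO and 6.77, 6.28 and 6.02 in WT. KO replicate 1 was the highest array at this probe set and also at the second, with 5.47, 3.71 and 4.37 in KO and 4.45, 4.01 and 3.79 in WT. The interval of the first, -0.91 to 0.74, leaves a change of either sign possible. Hars2 differed by -0.36 at its dimmer probe set (unadjusted p 0.0459) and by -0.09 at its brighter one.

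**Figure D4:**
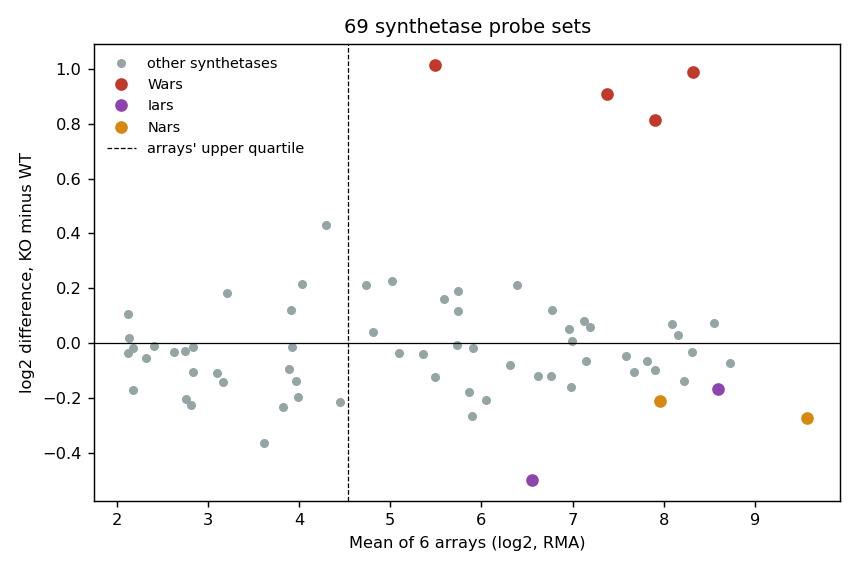
Difference between KO and WT (log2) against the mean of the 6 arrays for the 69 synthetase probe sets, with the arrays' upper quartile as a dashed line. The 4 Wars probe sets lie at 0.81 to 1.02, over a wide range of brightness, and the other 65 between -0.50 and 0.43.

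None of the genes that help synthetases passed. Of 14 scaffolds and helpers measured 0 passed in limma and the median was -0.08. At an unadjusted p under 0.05, 1 gene was higher and another lower, where 4.55% of all genes were higher and 5.58% lower. Aimp2, a scaffold of the multisynthetase complex, measured 7.72, 7.79 and 8.12 in KO and 8.29, 8.38 and 8.17 in WT, a difference of -0.40 that did not pass (adjusted p 0.386 in limma). Mtfmt, which formylates the mitochondrial initiator methionyl-tRNA, differed by 0.36 from levels below the upper quartile, Dtd1, which removes D-amino acids from tRNA, by -0.20, and Trnt1, which adds the CCA end to tRNAs, by -0.17. Pars2 and Vars2, a pair of further mitochondrial synthetases, differed by -0.33 and -0.04.

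Translation factors, which act before and after the charged tRNA reaches the ribosome, did not pass either. Of 23 initiation factors 0 passed in limma and 0 had an unadjusted p under 0.05, with a median of -0.06. Over all genes 10.1% had such a p, 5.58% as lower, which is the share to set beside the counts below. Those of smallest p were Eif4a2 at -0.21, the cap-binding Eif4e at -0.21, Eif3a at -0.18 and Eif5b at -0.22. Of 11 elongation factors 0 passed and 1 had an unadjusted p under 0.05, the mitochondrial Tsfm at -0.43 (adjusted p 0.426 in limma). The kinase Eef2k differed by -0.21, Gfm2 by -0.13 and Eef1d by 0.05. Of 8 regulators of eIF2alpha phosphorylation 0 passed and 0 had an unadjusted p under 0.05. Among them the heme-sensing kinase Eif2ak1 differed by 0.20, and Gcn1, which helps the kinase that reads uncharged tRNA, by 0.23, the kinase Eif2ak2 by 0.16 and Impact by 0.14. Of 22 genes of the mTORC1 pathway, which couples amino acids to growth, 0 passed and Tsc2, an inhibitor of it, was the 1 with an unadjusted p under 0.05, at -0.22. Its activator Rheb differed by -0.18, the scaffold Rptor by 0.18 and the GTPase Rragd by 0.28.

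Among ATF4 targets that are not synthetases, Fgf21 fell and no other gene passed. In the list of 33 measured genes 1 passed in limma, as lower, and the median was -0.18. By an unadjusted p under 0.05, 10 were lower and 0 higher, where 5.58% of all genes were lower and 4.55% higher at that level. Fgf21, a hormone that acinar cells secrete, measured 3.49, 4.02 and 4.14 in KO and 7.11, 6.26 and 5.62 in WT, with no overlap. It fell by 2.45 on the log2 scale (adjusted p 0.0301 in limma), and the KO levels lie below the upper quartile, where a difference can be understated. That call was lost under 7 of 16 alternatives, with an adjusted p up to 0.195, among them the fits without KO replicate 1 (0.101), KO replicate 2 (0.137), KO replicate 3 (0.0918) and WT replicate 2 (0.195). Chac1, which degrades glutathione, differed by -2.63 (adjusted p 0.142), the pseudokinase Trib3 by -1.36 (adjusted p 0.0614) and the cystine transporter Slc7a11 by -0.63 (adjusted p 0.194), none of which passed in limma. Trib3 did pass under 3 of 16 alternatives, namely without WT replicate 3 (adjusted p 0.0093 in limma), with a robust variance and intensity trend (0.0306) and with the mean of its probe sets (0.0343), and reached 0.336 without WT replicate 2. Atf4 itself measured 8.82 in KO and 9.14 in WT (means, adjusted p 0.55 in limma).

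These differences were read against the promoter matches printed above. The 5 synthetases with the motif differed by -0.17 to 0.08, with a median of -0.07, and 0 had an unadjusted p under 0.05. The 9 ATF4 targets with the motif were all lower, by -2.63 to -0.08, with a median of -0.63, and 5 had an unadjusted p under 0.05, where 50.2% of all genes were lower at any size and 5.58% lower at that p. The 20 synthetases with a window but no match had a median of -0.03, and 15 were lower, 1 of them at an unadjusted p under 0.05. The 20 such ATF4 targets had a median of -0.14 and ran from -1.58 to 0.02. Of these 20, 18 were lower, 5 of them at an unadjusted p under 0.05, so lower values were not limited to targets with the motif. The list of ATF4 targets was drawn up with earlier results of these arrays known, so its direction is no independent evidence, and no test was made between the lists.

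**Figure D5:**
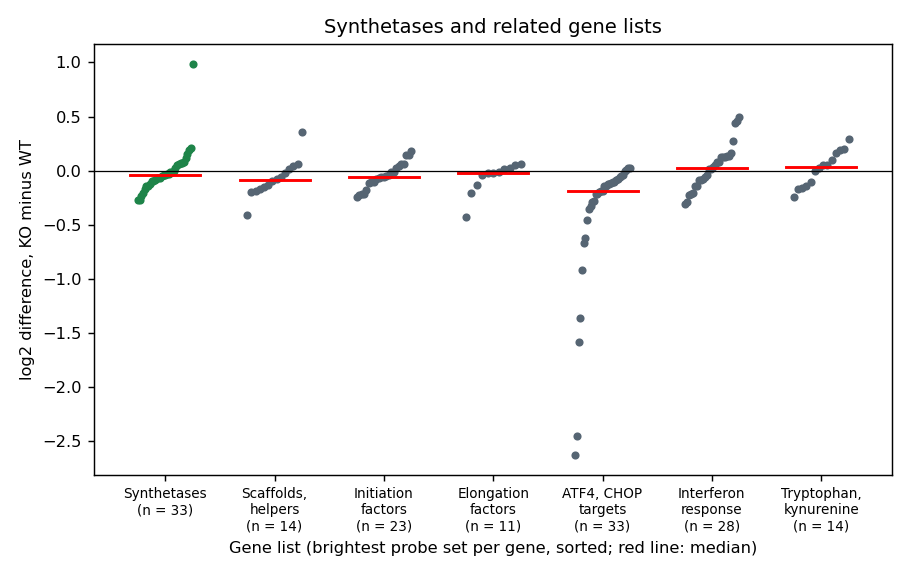
Difference between KO and WT (log2) for synthetase genes and 6 related lists, 1 point per gene by its brightest probe set, sorted within each list, with the median as a red line. Medians run from -0.18 for the ATF4 and CHOP targets to 0.04 for tryptophan metabolism, and the Wars point is the highest of all lists at 0.99.

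Interferon response genes were set beside Wars because of its known induction by interferon gamma. Of 28 measured 0 passed in limma, and by an unadjusted p under 0.05, 2 were higher and 0 lower, where 4.55% of all genes were higher at that level. Irf1, a transcription factor induced by interferon, measured 5.23, 5.46 and 5.33 in KO and 4.66, 5.07 and 4.99 in WT, without overlap, a difference of 0.44 (adjusted p 0.349 in limma). Irgm1, an interferon-induced GTPase, measured 6.20, 6.19 and 5.57 in KO and 5.60, 5.40 and 5.47 in WT, a difference of 0.50 with overlapping groups (adjusted p 0.424 in limma). Tapbp, of antigen loading, differed by 0.27 and Irf9 by 0.46, both with overlapping groups, and Irf9 lay below the arrays' upper quartile. Over the whole list 16 genes were higher and 12 lower, with a median of 0.03, and the next genes by p were lower in KO without passing, the antiviral Rsad2 at -0.22, Ifit1 at -0.30, the chemokine Cxcl10 at -0.22 and B2m at -0.29. The mean log2 level over the 28 genes was 4.25 to 4.59 in the KO arrays and 4.30 to 4.46 in the WT arrays. Of the 28, 9 lay above the arrays' upper quartile and 7 below the median of all probe sets.

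Markers of immune cells, which can express Wars strongly, overlapped between the genotypes in their mean level. The mean log2 level over the 9 markers measured was 3.63 to 4.001 in the KO arrays and 3.78 to 3.88 in the WT arrays. Lyz2 was the 1 of the 9 above the upper quartile, and at an unadjusted p under 0.05 Cd3e was higher by 0.24 and Itgam lower, at -0.33. At that p 4.55% of all genes were higher and 5.58% lower. No marker of any other cell type passed either. Markers of stellate cells and fibroblasts were lower in KO in 7 of 7 genes, 3 of them at an unadjusted p under 0.05, where 50.2% of all genes were lower at any size and 5.58% at that p. Their mean level was 7.30 to 7.65 in the KO arrays and 7.67 to 7.95 in the WT arrays, without overlap. Of the duct markers 3 of 4 were higher, where 9067 of all 18193 genes were higher at any size. The transcription factor Sox9 was higher by 0.52 (unadjusted p 0.00874, adjusted p 0.389 in limma) without overlap. Krt7 and Cftr differed by 0.24 and 0.02 at levels below the upper quartile, while Krt19, above it, was lower at -0.26. The mean of the duct list was 4.22 to 4.52 in the KO arrays and 4.17 to 4.29 in the WT arrays. Islet markers were lower in 6 of 7 genes, with a mean of 8.05 to 8.18 in the KO arrays and 8.19 to 8.27 in the WT arrays. These islet means did not overlap either, though the gap was narrow. Acinar markers were lower in 8 of 9 genes, the acinar transcription factor Ptf1a by the most, at -0.56 (unadjusted p 0.0312 in limma). The acinar mean was 12.49 to 12.56 in the KO arrays and 12.56 to 12.69 in the WT arrays, with a slight overlap. Fat markers were lower in 4 of 4 genes, with a mean of 4.76 to 6.03 in the KO arrays and 5.64 to 6.66 in the WT arrays. Endothelial markers were lower in 3 of 5 genes and liver markers in 2 of 4, and the means of both lists overlapped. Ttr, the 1 gene of the liver list above the upper quartile, measured 10.48, 9.87 and 10.23 in KO and 11.03, 11.01 and 10.90 in WT. It was lower without overlap, at -0.79, and did not pass (unadjusted p 0.0003, adjusted p 0.142 in limma). The others of that list, Alb, Apoa1 and Ahsg, had means of 4.06, 4.18 and 2.49 over all arrays against 10.59 for Ttr. Ttr is therefore not read as a sign of liver tissue here, and which cells it came from was not tested. The part of these cells in the Wars difference was not tested. Of the 14 genes of tryptophan and kynurenine metabolism 0 passed in limma, and 1 had an unadjusted p under 0.05. This was Slc16a10, a carrier of aromatic amino acids, with 3.69, 3.69 and 3.64 in KO and 3.45, 3.51 and 3.47 in WT. It was higher in KO, where 4.55% of all genes were higher at that p. Its levels were below the upper quartile, and 2 of the 14 genes lay above it. Kynu, Kmo and Qprt, enzymes that lead from kynurenine towards NAD, differed by 0.19, 0.29 and 0.17 at levels near the array medians, and Haao, on the same route, by -0.17. Ido2, Kyat1 and Aadat differed by -0.24, -0.16 and -0.10, and over the list 8 genes were higher and 6 lower.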

How the data were processed

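Expression in whole pancreas of 3 KO and 3 WT samples was read from the deposited table of log2 values, which the authors made by RMA (affy), per the submitters' processing notes. No version, setting or genome build of that step is known here. Groups and replicate numbers come from the sample titles. Of 45101 probe sets 64 Affymetrix controls were left out. Probe sets were named from the platform annotation where it gave 1 symbol (34958; 932 had several and 9211 none), updated by Entrez identifier through RefSeq for GRCm38.p6 (34754). KO minus WT was fitted in limma 3.58.1 (R 4.3.3; lmFit, then eBayes), two-sided, without covariates, with intervals at 95% on 9.53 degrees of freedom. A gene was read at its brightest single-symbol probe set over all arrays. No detection calls exist in these values, and the number of arrays limits the precision. P-values set the difference of the group means against the spread of samples within groups, moderated over all probe sets. How far that spread is one between single mice is not known, since the mice per sample are not stated.

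The members and the lists were chosen with earlier results of these data known. Values in every array are given for synthetases past the threshold at any probe set, with an unadjusted p under 0.05 at the brightest probe set, or with groups apart by 0.3 or more. Of each related list, genes past the threshold and up to 4 of smallest p are named, and marker lists are given mainly by counts and mean levels. Other genes, such as Eprs, Tars2, Fars2, Hars2, Wars2, Atf4, Cd3e, Itgam, the duct markers, Ttr and Ptf1a, were added with their values in view. So were the interferon and tryptophan genes beyond the first 4, and the neighbours of Wars. As alternatives, arrays were quantile-normalized again, set to equal medians, weighted or left out in turn. Dim probe sets were removed, the variance was modelled robustly with a trend on intensity, and the replicate number (block) or Xist (covariate) was added to the model. The threshold was set to 0.1, and genes were read as a mean over their probe sets, without _s_at and _x_at probe sets, or at 1 probe set each before adjustment. The fit was tested on simulated data. Figures were drawn with matplotlib 3.10.9.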

Additional observations from a re-analysis of the deposited data

How the results depend on the processing

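Wars kept its direction at all 4 probe sets under every alternative, with log2 differences of 0.79 to 1.11. At the brightest probe set the call was lost without WT replicate 2 alone. The count of synthetase genes past the threshold was 0 to 1 with each array left out and 1 under every other alternative, and that of synthetase probe sets was 1 to 3 with an array left out and 3 or 4 otherwise. The median difference of the synthetase genes, -0.04, was 0.00 after a second quantile normalization and 0.01 with the Xist covariate, and -0.08 to -0.00 with an array left out, so its sign is not settled. Over all probe sets, 44 passed, 22 with the Xist covariate, 76 at an adjusted p under 0.1 and 16 to 41 with an array left out, where fewer arrays or a covariate leave less power. With the replicate number as a block 33 probe sets passed, 4 of them of synthetases, the dimmest Wars probe set among them (adjusted p 0.047 in limma). The block moved no other synthetase across the threshold, though Fgf21 no longer passed (adjusted p 0.0557 in limma). Samples of equal number correlated at 0.19, -0.03 and -0.08 in their deviations from the group means. Samples of unequal number were not compared in this way, so these values do not settle whether the numbers pair the samples. The small difference of Vars2, -0.04, was -0.131 to 0.0286 with an array left out (above 0 without WT replicate 2) and 0.0347 with the mean of its probe sets. That of Impact, a regulator of eIF2alpha phosphorylation, was 0.14, and -0.0202 with the mean of its probe sets. The cause of these reversals was not tested. Of 705 single values recomputed for 46 named probe sets, 684 kept their direction and side of the threshold. Many of these probe sets were far from the threshold, so the count says little about those that passed. Fgf21 kept its call in 9 of 16 alternatives and the second brightest Wars probe set in 10 of 13. Probe sets below the upper quartile, among them those of 6 mitochondrial synthetases, have differences that can be too small.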
